A study of Homo sapiens with 10 samples.

Results

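The interleukin-6 (IL-6) family was followed here through 10 genes of the bulk RNA-seq count table of irradiated renal proximal tubular epithelial cells (RPTECs). These genes were 4 cytokines (IL6, LIF, IL11 and CLCF1), 4 receptor chains (IL6ST, IL6R, LIFR and OSMR), the transcription factor STAT3 and its feedback inhibitor SOCS3. They were found by Ensembl identifier among the 61587 rows of the table, and all 10 passed the filter of at least 200 counts in total, which 19006 genes reached. The cells were RPTEC/TERT1, a human proximal tubule line immortalised with telomerase, and 1 line stands for the tubule in all samples. Both groups grew in the same medium, which contains hydrocortisone and epidermal growth factor. The irradiated group (n = 5) received 10 Gy of gamma irradiation, the control group (n = 5) was mock-irradiated, and RNA was collected on day 7. Samples of the same replicate number share a B number in the labels and were compared as pairs, and p-values measure the spread between these samples only. The sample labels number the line upwards from RPTEC/TERT1, while the study names RPTEC/TERT1 alone.

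IL-6 family cytokines act through receptor complexes that share the chain gp130, encoded by IL6ST. IL-6 and IL-11 bind a specific receptor (IL6R, IL11RA) before gp130 pairs with itself, whereas LIF uses LIFR with gp130, oncostatin M uses OSMR or LIFR with gp130, and CLCF1 uses the receptor CNTFR with LIFR and gp130. JAK kinases bound to these chains activate STAT3, and STAT3 induces SOCS3, which binds gp130 and limits the signal. IL-6 and LIF are also known as secreted factors of senescent cells and of injured tubules.

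The promoters of 3 members are shown first, because IL6 had the largest rise among the members, IL6ST the largest rise among the receptor chains, and IL11 was the cytokine that was lower. Each line gives the 250 bases before a RefSeq start site in GRCh38.p14, read 5′ to 3′ on the gene's strand, and capitals mark the match to a motif. The IL6 window is at chr7:22726950-22727199 on the plus strand, within the IL6 gene body of GENCODE, which begins further upstream. The IL11 window is at chr19:55370464-55370713 and the IL6ST window at chr5:55994964-55995213, both on the minus strand. The IL11 window ends just before the gene, and that of IL6ST reaches over the first bases of the gene as GENCODE draws it.
IL6: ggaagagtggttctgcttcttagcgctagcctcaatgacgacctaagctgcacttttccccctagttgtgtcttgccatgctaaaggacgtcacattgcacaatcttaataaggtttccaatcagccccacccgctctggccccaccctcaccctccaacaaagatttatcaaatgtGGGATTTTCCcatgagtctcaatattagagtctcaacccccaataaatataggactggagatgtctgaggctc
IL11: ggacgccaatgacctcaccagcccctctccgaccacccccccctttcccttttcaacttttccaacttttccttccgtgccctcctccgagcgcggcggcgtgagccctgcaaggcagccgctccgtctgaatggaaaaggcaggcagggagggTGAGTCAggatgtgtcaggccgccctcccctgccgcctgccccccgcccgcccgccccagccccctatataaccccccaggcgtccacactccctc
IL6ST: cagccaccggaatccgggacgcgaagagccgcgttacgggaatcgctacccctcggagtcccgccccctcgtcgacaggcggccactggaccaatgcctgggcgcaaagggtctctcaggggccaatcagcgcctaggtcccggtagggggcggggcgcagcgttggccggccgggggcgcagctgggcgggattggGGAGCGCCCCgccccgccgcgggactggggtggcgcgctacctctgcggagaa

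Motifs were searched on both strands of 11 such windows, which covered 8 of the 10 members (IL6, IL11, IL6ST, IL6R, LIFR, OSMR, STAT3 and SOCS3). The NF-κB motif was matched by GGGATTTTCC in IL6, beginning 73 bases before the start site, and by GGAGCGCCCC in IL6ST, beginning 53 bases before it. The share of all 35114 windows of this length with a match was 9.96%. The AP-1 motif TGANTCA was matched once, by TGAGTCA in IL11, 96 bases before the start site, against 6.57% of all windows. The STAT motif TTCNNNGAA was matched by TTCATCGAA and TTCCTTGAA in 2 of the windows of LIFR, which has several start sites, against 6.57% of all windows. The windows of SOCS3 lie at chr17:78359668-78359917, inside the gene, and at chr17:78360926-78361175, upstream of it. Neither holds the bases directly before the SOCS3 gene of GENCODE, which begins at 78360077 on the minus strand. That stretch was therefore not searched for motifs. All windows of LIFR lie inside its gene body. A match describes letters and not binding.

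Among the cytokines and receptors, IL6, LIF, CLCF1 and IL6ST rose after irradiation, while IL11, IL6R, LIFR and OSMR fell. SOCS3 also fell, and STAT3 was not called. With edgeR's quasi-likelihood test and Benjamini-Hochberg adjustment over all genes, 4 of the 10 members were higher and 5 lower at an adjusted p-value under 0.05, against 23.9% and 22.7% of all tested genes (46.6% in either direction). A fitted change of more than 2-fold was seen for 1 member in each direction, IL6 and SOCS3, compared with 5.26% of tested genes higher and 4.06% lower. For 7 members the CPM of the irradiated samples did not overlap that of the controls (4 higher, 3 lower), where 14.6% of tested genes had no overlap and were higher, 12.0% lower and 26.7% either. In all 5 pairs 4 members were higher, as 26.4% of tested genes, and 4 were lower, as 25.0%. The median log2 fold change of the members was -0.21 and that of all tested genes -0.01. CDKN1A, the p21 gene that serves as a check of the treatment, lay between 584.4 and 768.4 CPM in irradiated and between 66.7 and 207.6 CPM in control samples. In these bulk samples, a change in the number of expressing cells and in the RNA per cell cannot be told apart.

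IL6 (ENSG00000136244, chromosome 7 from 22725884 to 22732002) encodes the founding cytokine of the family. Its expression in control replicates 1 to 5 was 3.47, 6.17, 7.74, 6.34 and 3.97 CPM (counts scaled to library size after TMM normalisation). In irradiated replicates 1 to 5 it was 48.7, 35.0, 75.4, 52.9 and 42.7 CPM. The lowest irradiated sample was thus above every control. The log2 fold change was 3.21 (SE 0.17; edgeR, adjusted p = 2.11e-05), a 9.23-fold rise, and within pairs the ratio ran from 5.68 in replicate 2 to 14.03 in replicate 1. This change stood at percentile 99.6 of all tested genes.

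LIF (chromosome 22 from 30240453 to 30246759) encodes leukaemia inhibitory factor, which signals through LIFR and gp130. Control samples held 63.7, 62.3, 61.8, 67.9 and 59.3 CPM in replicates 1 to 5. Irradiated samples held 132.0, 101.9, 136.7, 119.2 and 113.6 CPM. Controls were tight, with a coefficient of variation of 5.02%, and the groups did not overlap. The log2 fold change was 0.93 (SE 0.07; edgeR, adjusted p = 5.46e-05), with ratios within pairs from 1.64 to 2.21. CLCF1 (chromosome 11 from 67364168 to 67374177) encodes cardiotrophin-like cytokine factor 1. It went from 23.5, 19.7, 16.9, 19.8 and 17.9 CPM in controls to 41.1, 31.5, 40.5, 39.9 and 34.2 CPM in irradiated replicates 1 to 5. All 5 irradiated samples exceeded the highest control, and the log2 fold change was 0.94 (SE 0.08; edgeR, adjusted p = 0.000115), close in size to that of LIF.

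IL11 (chromosome 19 from 55364382 to 55370463) encodes interleukin-11, a cytokine known for its part in fibrosis. It was the weakest expressed member, with 3380 counts over all samples. Control replicates 1 to 5 held 3.94, 2.81, 3.44, 7.91 and 3.56 CPM, and irradiated replicates 1.95, 3.001, 1.85, 2.41 and 2.92 CPM. The groups overlapped, and the irradiated sample was lower in 4 of 5 pairs, the exception being replicate 2. The log2 fold change was -0.77 (SE 0.24; edgeR, adjusted p = 0.0337). IL11 was no longer called when replicate 1, 3 or 4 was left out (edgeR, adjusted p = 0.107, 0.0684 and 0.0874), and the log2 fold change fell in size to -0.52 without replicate 4, which holds the high control.

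**Figure D1:**
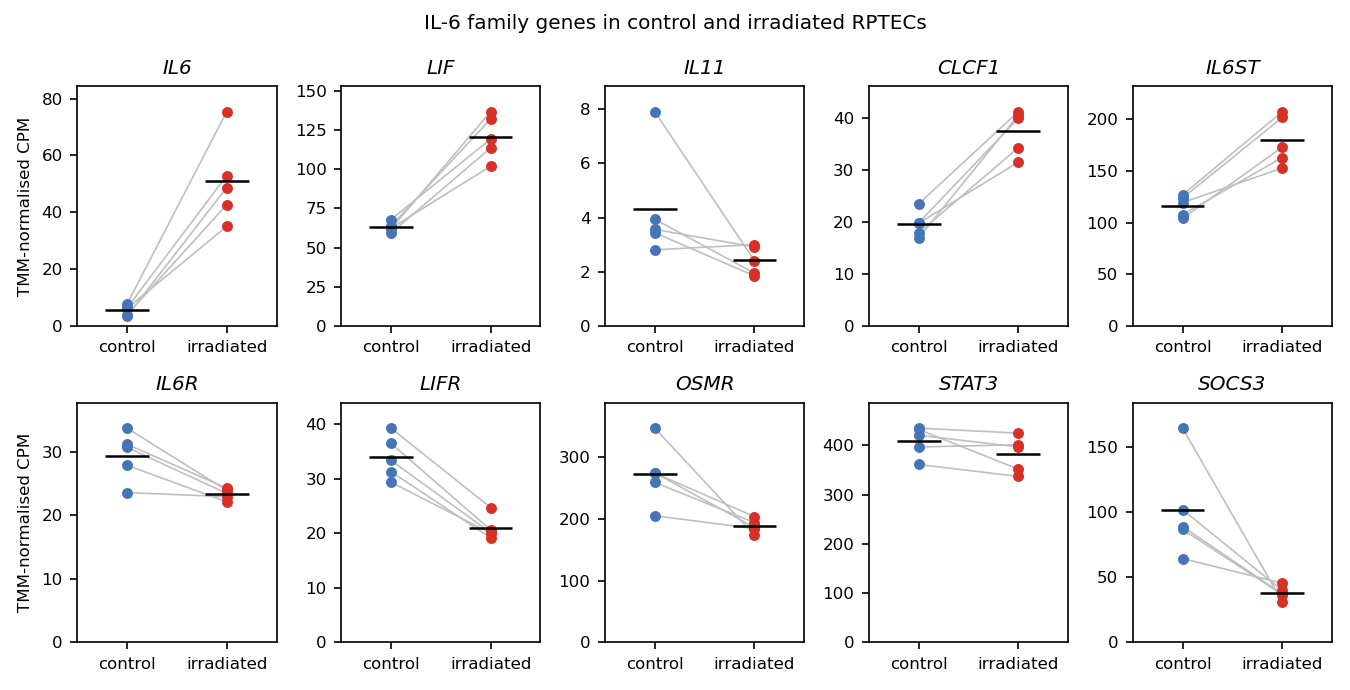
TMM-normalised CPM of each of the 10 members (y axis, linear, from 0) in control (blue) and irradiated (red) samples, n = 5 each, with grey lines joining samples of the same replicate number and black bars at the group means. The rises of IL6, LIF, CLCF1 and IL6ST and the falls of LIFR, OSMR and SOCS3 separate the groups, while IL11, IL6R and STAT3 overlap.

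IL6ST (chromosome 5 from 55935095 to 55995022), the gene of gp130, was the only receptor chain among the members that rose. Controls held 104.0, 119.3, 107.7, 126.7 and 123.7 CPM and irradiated samples 172.8, 152.7, 162.8, 207.2 and 201.6 CPM in replicates 1 to 5. The groups did not overlap, and the log2 fold change was 0.62 (SE 0.06; edgeR, adjusted p = 0.000207), a 1.54-fold rise.

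The chains that pair with gp130 were lower. LIFR (chromosome 5 from 38474668 to 38608354) had 39.3, 29.4, 36.5, 31.3 and 33.4 CPM in controls and 24.8, 20.04, 20.7, 19.2 and 20.2 CPM in irradiated samples. The highest irradiated value lay under the lowest control, and the log2 fold change was -0.70 (SE 0.05; edgeR, adjusted p = 5.82e-05), a fall of similar size in all 5 pairs, from -0.82 to -0.55 on the log2 scale. OSMR (chromosome 5 from 38845858 to 38945596), the oncostatin M receptor, was the most abundant receptor chain. It went from 273.9, 204.8, 346.5, 274.3 and 258.8 CPM to 203.5, 184.2, 173.5, 185.9 and 193.9 CPM, and the control of replicate 2 was just above the highest irradiated sample. Its log2 fold change was -0.51 (SE 0.11; edgeR, adjusted p = 0.0062). Within pairs the fall of OSMR ranged from -0.998 in replicate 3 to -0.15 in replicate 2.

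IL6R (chromosome 1 from 154405193 to 154469450) encodes the receptor that binds IL-6. Its membrane and soluble forms are not separated by counts per gene. Controls held 31.2, 23.6, 33.7, 30.7 and 27.9 CPM and irradiated samples 24.3, 23.0, 24.0, 23.5 and 22.1 CPM. The groups overlapped through control replicate 2, and irradiated samples were close to each other, with a coefficient of variation of 3.68%. IL6R was lower in all 5 pairs, with a log2 fold change of -0.32 (SE 0.07; edgeR, adjusted p = 0.00623).

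STAT3 (chromosome 17 from 42313324 to 42388540), the main transcription factor downstream of gp130, was not called. Controls held 360.9, 434.5, 431.9, 396.4 and 420.1 CPM and irradiated samples 336.7, 424.6, 351.4, 401.0 and 396.6 CPM. The ranges overlapped over most of their length, and the log2 fold change was -0.10 with a 95% interval from -0.23 to 0.03 (adjusted p = 0.18 in edgeR). Counts of STAT3 RNA do not measure the phosphorylated protein.

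SOCS3 (chromosome 17 from 78356778 to 78360077), whose product blocks gp130 signalling, had the largest fall of the members. Controls held 101.8, 64.3, 164.3, 88.9 and 86.8 CPM in replicates 1 to 5. Irradiated samples held 39.8, 45.4, 31.4, 37.2 and 36.7 CPM, all under the lowest control. The log2 fold change was -1.34 (SE 0.23; edgeR, adjusted p = 0.00224), a level 2.54-fold lower. Replicate 3, with the highest control and the lowest irradiated value, gave a fall of -2.39 on the log2 scale, and replicate 2 one of -0.50. When each replicate was left out in turn, the log2 fold change of SOCS3 ran from -1.55 to -1.08, and the gene was called each time.

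**Figure D2:**
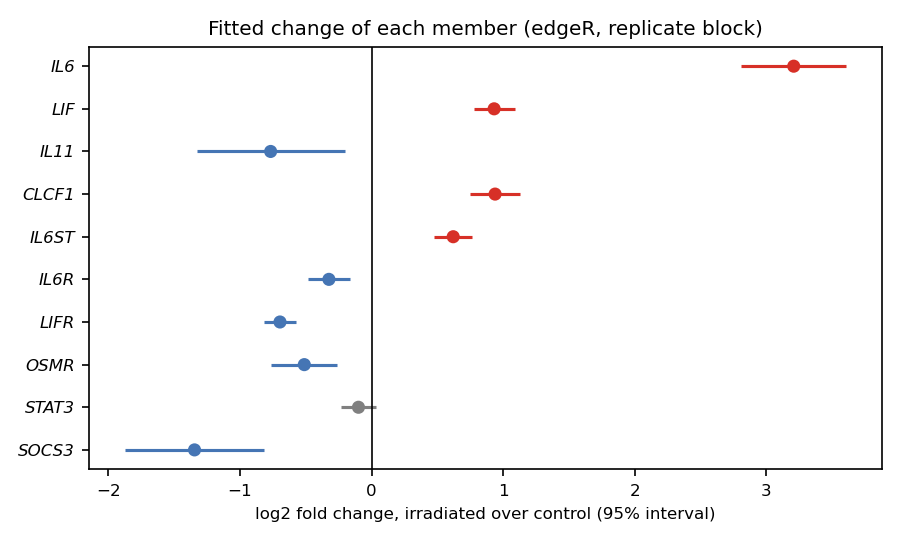
Fitted log2 fold change of each member, irradiated over control (x axis), with its 95% interval from the edgeR fit with replicate number as a block (n = 5 pairs). Red marks genes called higher, blue genes called lower and grey STAT3, which was not called. IL6 lies at 3.21 and SOCS3 at -1.34, and the other called members lie between -0.77 and 0.94.

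Levels of different members were compared as mean CPM per kb, taking the length of the MANE Select transcript. In control samples STAT3 was highest at 83.1 ± 6.2 (SD, n = 5), followed by OSMR at 49.2 ± 9.2 and SOCS3 at 37.0 ± 13.8 CPM per kb. OSMR and SOCS3 overlapped each other, and all other members lay below both. LIF, at 16.3 ± 0.8 CPM per kb, was the leading cytokine of control cells. It was followed by IL6ST (12.9 ± 1.1) and CLCF1 (11.5 ± 1.5), which overlapped, and by IL6R (5.11 ± 0.67), IL6 (4.91 ± 1.57), LIFR (3.22 ± 0.38) and IL11 (1.82 ± 0.86), of which each overlapped the next. After irradiation STAT3 was still highest, at 77.6 ± 7.5 CPM per kb. IL6 moved from place 8 to place 2, at 45.2 ± 13.5 CPM per kb. Its range overlapped that of OSMR (34.1 ± 2.0), and OSMR overlapped LIF (31.2 ± 3.6 CPM per kb). CLCF1 and IL6ST came next, at 21.95 ± 2.54 and 19.9 ± 2.7, and SOCS3 stood apart below them at 13.9 ± 1.9 CPM per kb. IL6R, LIFR and IL11 remained the lowest, at 4.05 ± 0.15, 1.99 ± 0.21 and 1.02 ± 0.22 CPM per kb, with no overlap between them. These places rest on the transcript length used. With the union of all annotated exons STAT3 was at place 3 in controls, at 36.5 CPM per kb behind OSMR (37.9) and SOCS3 (37.0), and at place 1 in irradiated samples. For IL6 the MANE Select transcript has 1127 bases and the union 4321, and with the union IL6 was at place 10 in control and at place 7 in irradiated samples.

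**Figure D3:**
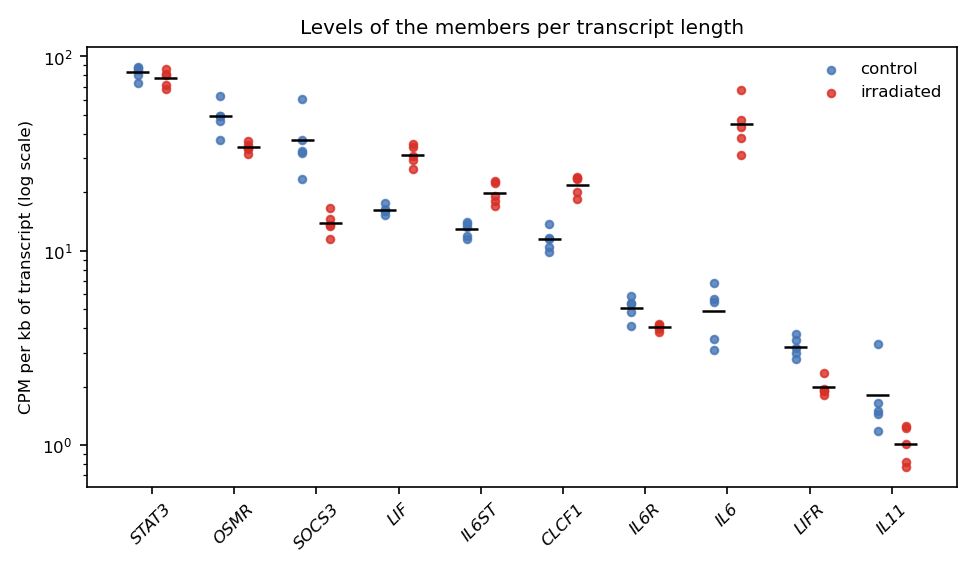
CPM per kb of the MANE Select transcript (y axis, log scale) of the members in control (blue) and irradiated (red) samples, one point per sample and black bars at the means, ordered by the control mean. IL6 crosses from among the weakest members, at 4.91, to 45.2 CPM per kb, while STAT3 stays at the top in both groups at this transcript length.

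The size of the response differed between pairs in the same way for most members. Replicate 2 had the smallest absolute log2 ratio of the 5 pairs for 9 of the 10 members, and replicate 3 the largest for 7. Over 18990 genes with counts in every sample, replicate 2 was smallest for 35.9% and replicate 3 largest for 40.8%. Irradiated replicate 2 held 66269311 counts, fewer than any other sample, and the others held 78081911 to 131555873. Control replicates 1 and 3 had summed levels of 15 cell cycle genes of 387.9 and 362.8 CPM, against 945.2 to 996.3 CPM in the other controls and 235.3 to 307.1 CPM in irradiated samples. SOCS3 and LIFR were highest in these 2 controls, and IL6R too. IL6ST was lowest in them, at 104.0 and 107.7 CPM against 119.3 to 126.7 CPM in the other controls. IL6 was lowest in control replicate 1 and highest in control replicate 3. The part of cell cycle state and depth in the members' changes was not tested.

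Other genes of the pathway were taken from lists written for this comparison. Of 6 further ligands, OSM, CTF1, IL27 and IL31 stayed under 200 counts in total, CTF1 with 62 and OSM with 12. CNTF was not called, and EBI3, a subunit that pairs with other chains to form IL-27 and IL-35, rose from 2.66 ± 0.61 to 8.05 ± 1.27 CPM with n = 5 in each group (± SD), and the fitted log2 change was 1.61 (SE 0.16; edgeR, adjusted p = 0.00022). Of 4 further receptors, CNTFR had 7 counts in total and was not tested. IL31RA, which pairs with OSMR in the IL-31 receptor, rose from 4.97 ± 1.43 to 15.2 ± 3.4 CPM, by a fitted log2 change of 1.62 (SE 0.24; edgeR, adjusted p = 0.00122). Its values were 4.43, 5.16, 2.92, 6.77 and 5.58 CPM in controls and 18.1, 10.1, 18.4, 14.8 and 14.6 CPM in irradiated samples, with no overlap, so that this chain rose where OSMR fell. IL27RA and IL11RA were not called. IL11RA, the receptor of IL-11, was at 0.849 ± 0.308 and 0.726 ± 0.219 CPM (SD, n = 5 each), and the 95% interval of its log2 fold change ran from -0.58 to 0.16.

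Of 9 kinases and adaptors, 5 were higher and 0 lower (median log2 fold change 0.24), against 23.9% and 22.7% of all tested genes. At an unadjusted p under 0.05 in edgeR 2 were lower, GAB1 and SOS1, while DESeq2 called 0 lower after adjustment and edgeR with upper-quartile scaling 2. JAK1, the main kinase of gp130, rose from 270.4 ± 27.2 to 408.3 ± 34.5 CPM (SD), which is 0.60 on the log2 scale. The adaptor gene GAB2 had a log2 fold change of 0.57, JAK2 of 0.34 and SHC1 of 0.34. Of 5 further STAT genes, 2 rose and STAT4 was under the filter. STAT5A, which lies next to STAT3 on chromosome 17, rose from 4.67 ± 1.26 to 13.9 ± 2.8 CPM (SD, n = 5 each; log2 fold change 1.59, adjusted p = 0.00016 in edgeR), and STAT6 by 0.46 on the log2 scale. In a list of 10 feedback and shedding genes, 1 rose and 4 fell. CISH, a SOCS family gene induced by STAT5, fell from 16.5 ± 7.8 to 7.11 ± 0.93 CPM, by a fitted log2 change of -1.11 (SE 0.23; edgeR, adjusted p = 0.00542). Its controls were highest in replicates 1 and 3, at 19.2 and 28.9 CPM, as for SOCS3. SOCS2 rose, with a log2 fold change of 0.70, and SOCS1 fell, with -0.38. PIAS1, an inhibitor of STAT proteins, fell by 0.25 on the log2 scale, and exons of genes on the other strand cover 32.7% of its exon length. ADAM17, a protease that sheds the IL-6 receptor, was the remaining gene that fell, at 51.9 ± 3.5 CPM against 61.7 ± 8.1 in controls (SD, n = 5 each; edgeR, adjusted p = 0.034), and it was named after its value was seen.

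Of 23 genes known as STAT3 targets, 17 were tested, and 6 were higher and 6 lower, against 23.9% and 22.7% of all tested genes, with a median log2 fold change of 0.16. When each replicate was left out, 5 to 9 of them were called higher (9 without replicate 3) and 6 lower each time. The acute phase genes SAA1 and SAA2 had the largest rises. SAA1 went from 1.22, 0.63, 3.23, 0.78 and 0.47 CPM in controls to 9.90, 4.57, 17.9, 11.7 and 8.47 CPM in irradiated replicates 1 to 5, with no overlap and a log2 fold change of 3.24 (SE 0.26; edgeR, adjusted p = 7.43e-05). SAA1 and SAA2 are near-identical copies, and how many reads could not be placed in one of them was not tested, so each value is uncertain. CCND1, the gene of cyclin D1, had a log2 fold change of 1.63, and BIRC5, the mitotic survivin gene, one of -2.40, with the low cell cycle levels given above beside it. The other genes that rose were BCL2L1 (0.76), with 41.3% of its exon length covered by exons on the other strand, TIMP1 (0.57) and MYC (0.49). Those that fell were VEGFA (-1.17), CEBPD (-0.90), BCL3 (-0.81), CEBPB (-0.80) and MCL1 (-0.30). These 3 and 5 genes were named after their values were seen. The liver acute phase genes FGA, FGB, FGG, HP, LBP and SERPINA3 had between 2 and 88 counts in total and were not tested.

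**Figure D4:**
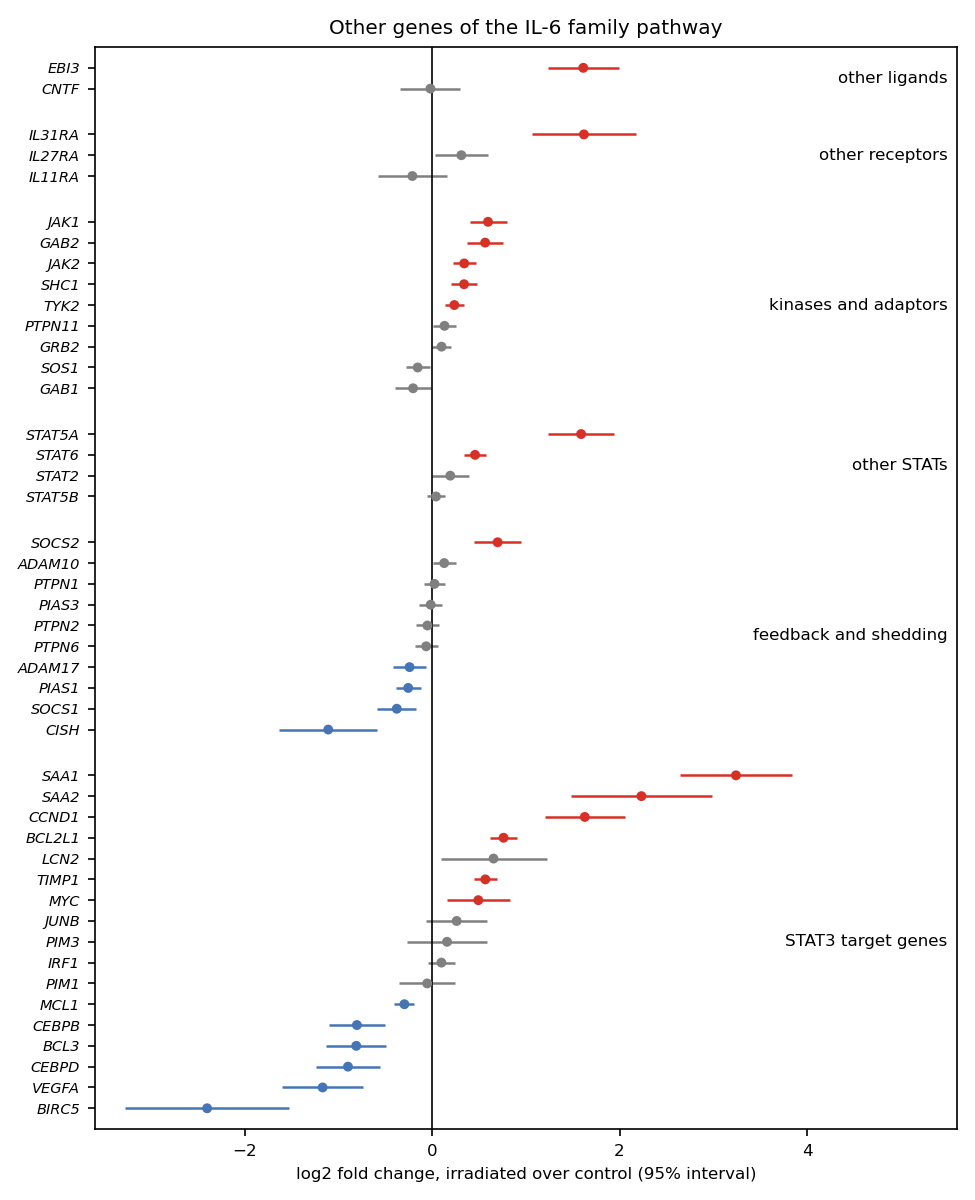
Fitted log2 fold change (x axis) with 95% interval of the tested genes of 6 lists, from the same edgeR fit (n = 5 pairs), with red for genes called higher, blue for lower and grey for not called. EBI3, IL31RA, STAT5A, SAA1, SAA2 and CCND1 lie beyond 1 on the right, and CISH, VEGFA and BIRC5 beyond -1 on the left.

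Several members are neighbours of genes of the same family. LIFR and OSMR lie 237.5 kb apart on chromosome 5 and both fell. IL6ST and IL31RA are 12.2 kb apart on the same chromosome and both rose. STAT3 and STAT5A are closer, 1381 bases apart on chromosome 17, and did not move together. STAT5A rose (log2 fold change 1.59), while STAT3 (-0.10) and STAT5B (0.04), 24691 bases from STAT3, were not called. LIF and OSM are 16.1 kb apart on chromosome 22, and OSM had 12 counts in total against 88048 for LIF. The table also holds 8 antisense or divergent non-coding genes named after a member, of which 7 were tested, and they were chosen after their values were seen. Of these 7, 6 were called (4 higher, 2 lower), against 46.6% of all tested genes, and each had the direction of its member. IL6ST-DT, LIF-AS1 and IL6-AS1 held only 203, 204 and 280 counts in total. They passed the filter on total counts partly through their higher irradiated counts, so this filter favoured a call of higher for them. The share of 46.6% therefore cannot measure how far this set follows the members. IL6-AS1 rose from 0.150 ± 0.068 to 0.438 ± 0.072 CPM, LIF-AS2 from 2.89 ± 0.36 to 5.498 ± 0.425 and IL6ST-DT from 0.132 ± 0.070 to 0.286 ± 0.055 CPM (SD, n = 5 each). OSMR-DT fell from 2.39 ± 0.47 to 1.25 ± 0.34 and SOCS3-DT from 1.53 ± 0.38 to 0.927 ± 0.246 CPM (SD, n = 5 each). LIF-AS1, with 12 to 30 counts a sample, had a log2 fold change of 0.80, and LIFR-AS1 one of -0.38, which was not called (adjusted p = 0.119 in edgeR).

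These counts carry no strand (the check is given with the processing). Genes wholly under exons of the other strand were nearly all at 0 counts (100% of protein-coding and 97.9% of long non-coding genes). Reads on exons that an antisense gene shares with its member thus appear to be left out of both genes. IL6-AS1 has 64.1% of its exon length inside the IL6 gene and 31.4% on IL6 exons. LIF-AS2 has 69.9% inside LIF and 10.5% on its exons, LIF-AS1 has 10.6% on LIF exons, and LIFR-AS1 has 58.8% inside LIFR and 8.07% on its exons. The remaining part of IL6-AS1, LIF-AS2 and LIFR-AS1 inside the member lies in introns of the member. Counts without strand cannot separate reads there from unspliced RNA of the member, and the share of such reads was not tested. IL6ST-DT, OSMR-DT and SOCS3-DT have 0% inside their members. Among the members, exons of genes on the other strand cover 9.91% of the exon length of IL6, 6.61% of IL6ST, 5.17% of LIFR, 4.37% of LIF and 3.19% of OSMR, and 0% of the other members.

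**Figure D5:**
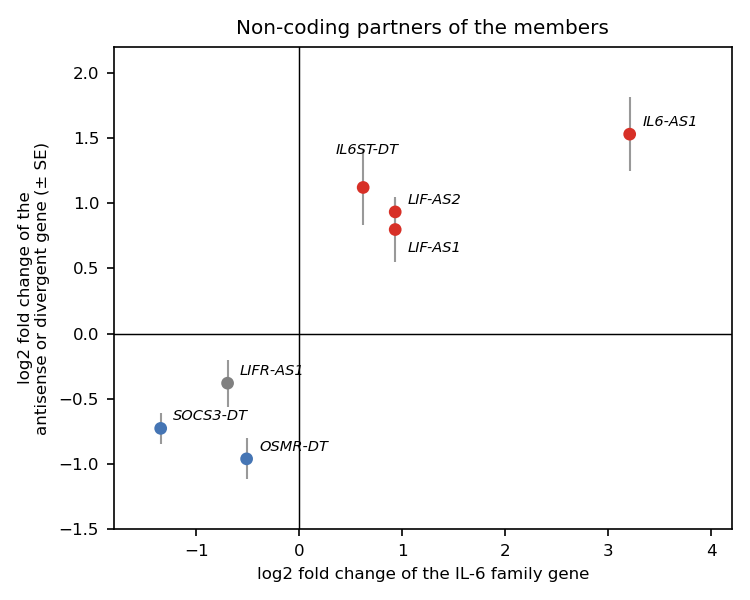
Log2 fold change (± standard error) of the 7 tested antisense or divergent non-coding genes (y axis) against that of the member each is named after (x axis), irradiated over control, n = 5 pairs. Red marks genes called higher, blue lower and grey not called. All 7 lie in the quadrants of equal sign, from OSMR-DT at -0.96 to IL6-AS1 at 1.53.

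The genes whose log2 CPM over the 10 samples was most like that of IL6 were CXCL2 (Pearson r = 0.998), TNFSF15 (0.996) and IRAK2 (0.996), among 12842 genes. CXCL2 encodes a neutrophil chemokine, TNFSF15 a TNF superfamily ligand and IRAK2 a kinase of interleukin-1 receptor signalling. Their log2 fold changes were 3.34, 4.72 and 3.02. Those most like LIF were CAPN14 (0.994), MDFI (0.993) and OTUB2 (0.992). These correlations describe 10 samples that share the difference between groups, and part of each value is that difference.

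Markers of other cell types differed in level. The sum of 6 leukocyte markers was 0.571 to 0.881 CPM in control and 1.87 to 2.58 CPM in irradiated samples, with CD3E, CD68 and LYZ under 200 counts in total. The rise in this sum came with ITGAM, from 0.044 ± 0.024 to 1.24 ± 0.37 CPM, and CD14, from 0.268 ± 0.061 to 0.570 ± 0.109 CPM (SD, n = 5 each), and its part in the members' changes was not tested. PTPRC, the pan-leukocyte gene, was at 0.295 ± 0.102 and 0.353 ± 0.121 CPM (SD, n = 5 each) and was not called. Sums of 6 fibroblast markers were 15.8 to 23.4 CPM in control and 28.5 to 40.0 CPM in irradiated samples. Nearly all of this was COL1A1, at 18.9 ± 3.3 and 32.1 ± 4.7 CPM (SD, n = 5 each). COL1A2, COL3A1, PDGFRB and LUM had 23, 4, 49 and 2 counts in total and were under the filter, while DCN also rose. The 5 endothelial markers summed to 1.29 to 2.40 CPM in control and 4.17 to 6.08 CPM in irradiated samples. Most of this rise was CDH5, from 0.596 ± 0.248 to 3.31 ± 0.94 CPM (SD, n = 5 each). PECAM1 rose too, VWF was not called, and KDR and EMCN had 2 and 9 counts in total. The part of these markers was not tested either. Of 13 proximal tubule markers, LRP2, SLC34A1, SLC22A6 and HNF4A were under the filter, while ANPEP, PAX8 and the epithelial keratins were present.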

How the data were processed

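Bulk RNA-seq counts of 5 control and 5 irradiated samples were used. The authors trimmed adapters, aligned reads to GRCh38 with STAR and deposited raw counts per gene, with no normalisation; the annotation release is not given in the sources used here. The labels and the paper name different library kits. All 17 protein-coding genes whose exons lie completely beneath those of a gene on the other strand were at 0 counts, compared with 10.7% of 12742 without such overlap, so the counts were treated as unstranded.

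Counts summed to between 66269311 and 131555873 per sample. Genes with at least 200 counts in total were tested in R 4.3.3 with edgeR 4.0.16 (TMM, glmQLFit, glmQLFTest), with replicate number as a block, which the study's own model also held, and Benjamini-Hochberg adjustment over all genes (threshold 0.05). Standard errors are the log2 fold change over the square root of F. Deviations of same-numbered samples correlated at 0.217 to 0.508 and those of different numbers at -0.354 to 0.317. All 5 pairs passed 0.1, so the numbers were taken as pairs. Counts of replicates differed by more than sampling noise. Tested on simulated data for irradiated against control with 19006 genes, this fit recovered 96% to 100% of genes changed by 1 or 2 on the log2 scale. In it 18 unchanged genes were called. The simulation held no replicate effect and changed only 50 genes per size and direction, drawn from genes above a mean count. It thus does not describe recovery for genes of low counts or where pairs differ.

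Coordinates and lengths come from GENCODE v44 (GRCh38), and promoter windows from RefSeq (GRCh38.p14). Alternatives were DESeq2 1.42.0, limma-voom (limma 3.58.1), other scalings and filters, no block, and each replicate left out. The members and lists were chosen with earlier results of these data known. Named genes are the members, at most 4 called genes per pathway list with the largest changes, and the 3 genes most like IL6 and LIF, unless stated. Some genes of the lists are not reported here.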

Additional observations from a re-analysis of the deposited data

Results flagged for a closer look

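A sample was singled out where its gap to the nearest other sample of its group, over the range of the group, passed Dixon's value for 5 samples. This held in 2 of 20 groups of member values, where chance gives about 1. IL11 in control replicate 4 was 7.91 CPM, against 2.81 to 3.94 CPM in the other controls. LIFR in irradiated replicate 1 was 24.8 CPM (24.75), against 19.2 to 20.7 CPM in the other irradiated samples, and control replicate 1 was also the highest of its group.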

How the results depend on the processing

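IL6, LIF, CLCF1, IL6ST, IL6R, LIFR, OSMR and SOCS3 kept their direction and call under all 8 other settings and in all 5 fits that left out a replicate. IL11 ran from -0.97 to -0.52 when each replicate was left out. STAT3 was called lower with library size as the only scaling (log2 fold change -0.18, adjusted p = 0.0299 in edgeR); this scaling moved the median log2 fold change of all genes from -0.01 to -0.09 and the share of called genes that rose from 51.4% to 38.0%. The fit with no replicate block changed no call of a member, and 7006 genes of the whole table were called without it against 8857 with the replicate block. Of the pathway lists, DESeq2 called 2 further receptors higher in place of 1. The kinases and adaptors called lower were 2 with upper-quartile scaling, 2 with library size, 2 with every gene of at least 1 count and 1 with DESeq2 size factors in edgeR, in place of 0. Leaving out replicates gave 1 to 2 further receptors higher, 1 to 2 feedback and shedding genes higher and 2 to 4 lower. With the union of exons, added after seeing the data, IL6 took place 10 in control and 7 in irradiated samples, and 2 and 5 of the 10 members kept their place in the order of levels. The cause of these shifts was not tested. Depth limits IL6-AS1, IL6ST-DT and LIF-AS1, near 200 counts in total.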
